A study of Rattus norvegicus with 24 samples.

Results

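The comparison set 10 exposures to isoflurane against 5 in whole rat brain, and asked how transcript levels after the longer course differed from those after the shorter one. Its members were the 3 arrays titled as 10 isoflurane exposures and the 3 titled as 5 isoflurane exposures, which are 6 of the 24 arrays of the series, read over 8740 probe sets that are not array controls. Both groups had exposures of 90 min to 1.0% isoflurane, 2 per day with 3 h of recovery between them, over 2.5 days for 5 exposures and over 5 days for 10. The 12 controls had 3 min of halothane and a perfusion with ice-cold saline, and served as a reference level. Halothane groups of 5 and 10 exposures (3 arrays each, 0.8%) served for the comparison of agents and, with the controls, for the estimate of the spread. The sources used here do not give strain, sex, age or how long after the last exposure the brains were taken. Whether replicates were separate animals is not said in the labels, and p-values then reflect only how much these samples vary, a spread that may be technical. At 2 exposures per day the shorter course ends on a day with 1 exposure and the longer one on a day with 2, so the number of exposures, the length of the course and any difference in the last day cannot be told apart.

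Isoflurane is a halogenated ether given by inhalation. It strengthens inhibition at GABA-A and glycine receptors, dampens excitatory transmission, opens some potassium channels and slows neuronal firing while it is present. Transcripts of immediate early genes such as Fos, Junb and Egr1 follow neuronal activity and decay quickly, whereas repeated exposure gives other transcripts, such as those of receptors, channels, chaperones and metabolic enzymes, time to shift.

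After 10 isoflurane exposures the lowest p-values belonged to the galanin gene Gal, which was higher on 2 of 3 arrays, and to the fatty acid hydroxylase gene Cyp4a1, the lysophosphatidic acid receptor gene Lpar2 and the fucosyltransferase gene Fut1, which were lower on all 3 arrays. None of them passed the threshold: limma called 0 of 7389 probe sets (0%) at a Benjamini-Hochberg adjusted p under 0.05, and the lowest adjusted p was 0.506, shared by these 4 genes. An unadjusted p under 0.05 was found for 222 probe sets (3.00%), 104 higher (1.41%) and 118 lower (1.60%), where 5% of the probe sets would be 369. The 2 groups did not overlap for 521 probe sets (7.05%), 256 higher (3.46%) and 265 lower (3.59%). A full separation of 3 against 3 arrays reaches only p = 0.10 in an exact permutation test. It held for 20 of the 24 genes with the lowest p-values, which were picked on the same arrays, so it is a description. The log2 difference was above 0 for 3532 probe sets (47.8%) and below 0 for 3745 (50.7%), with a median of -0.003, and it was past 1 in size for 29 (0.392%). The 95% interval of a log2 difference reached 0.52 to either side at the median, so smaller differences were mostly not detectable with 3 arrays a group. That interval is not adjusted for the number of probe sets. After adjustment larger differences went uncalled too, among them all 29 past 1 in size. In a fit on the 12 exposed arrays alone with the replicate number as a block, limma again called 0, and 406 probe sets had an unadjusted p under 0.05, against 246 on these arrays with no block. Without isoflurane 10 replicate 1 limma called 2 probe sets, Gal (log2 difference 1.38, adjusted p = 1.95e-07) and Cyp4a1 (-1.66, adjusted p = 0.032), and on arrays with low spike-in signal alone, 2 in each isoflurane group, it called Lpar2 (-0.78, adjusted p = 0.00144). Both 10-exposure arrays of that Lpar2 fit, at 7.3 and 14.4, lay under the floor set for dim signals, so their own spread was 0. The unadjusted count was 387 without isoflurane 10 replicate 2 and 145 without isoflurane 5 replicate 1.

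**Figure D1:**
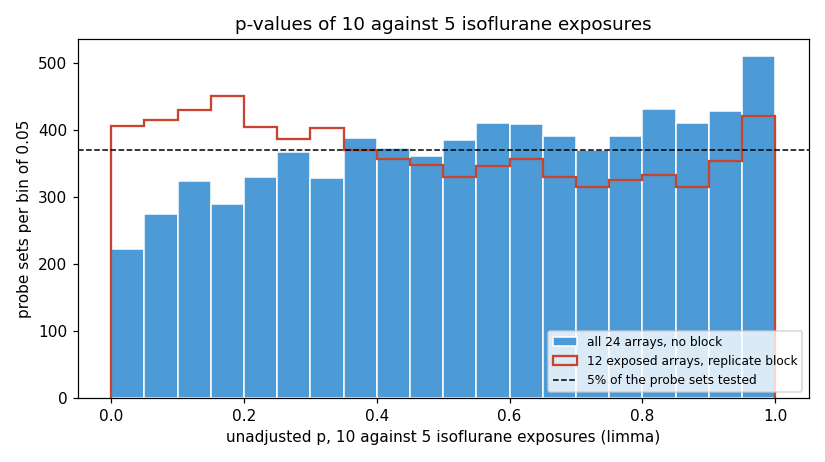
The x axis is limma's unadjusted p of 10 against 5 isoflurane exposures and the y axis the number of probe sets per bin of 0.05. Filled bars are the fit on all 24 arrays, with 222 probe sets in the lowest bin, the red outline is the fit on the 12 exposed arrays with the replicate number as a block, with 406, and the dashed line marks 5% of the probe sets tested, 369.

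Among the 6 isoflurane arrays, replicate 2 of the 10-exposure group stood apart. On it 20.1% of probe sets lay at or below 16.5, the signal used as a floor, against 24.5% to 27.1% on the other 5, and the pituitary markers Pomc and Gh1 were at 194 and 179, above every other isoflurane array and every control. Correlations between arrays were 0.939 to 0.960 within the 10-exposure group and 0.957 to 0.975 within the 5-exposure group, and 0.944 to 0.975 between the groups. The median SD of a probe set on the log2 scale was 0.277 after 10 exposures and 0.207 after 5. Bacterial spike-in signals were high on replicate 3 of both groups and low on the other isoflurane arrays. The ratio of the 3' to the 5' probe sets of beta-actin, a sign of RNA quality, was 2.14, 1.81 and 1.61 on the 10-exposure arrays. It was 1.74, 1.61 and 1.46 on the 5-exposure arrays and ran from 1.36 to 2.1 over the controls. The same ratio for GAPDH was 1.0, 1.02 and 0.953 after 10 exposures and 1.01, 0.98 and 0.876 after 5. The part of RNA quality in the results below was not tested. Markers of the labelled tissue were bright, with a mean signal of 5434 after 10 exposures and 5482 after 5 for the myelin gene Mbp, and of 4120 and 3894 for the astrocyte gene Aldoc.

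None of the 24 genes with the lowest p-values, 12 in each direction, passed. Cyp4a1, which hydroxylates the end carbon of fatty acids, had signals of 94.7, 126 and 104 on replicates 1 to 3 of the 5-exposure group and 65.5, 49.9 and 23.3 after 10 exposures. All 3 later arrays lay below all 3 earlier ones, and 2 of them below every control array (control range 64.3 to 128). The log2 difference was -1.34 ± 0.28 (SE, 95% interval -1.93 to -0.75, limma, p = 9.03e-05, adjusted p = 0.506). A second Cyp4a1 probe set gave 0.61 ± 0.53, in the other direction, with overlapping groups. Hadha, a subunit of the enzyme complex of mitochondrial fatty acid breakdown, had signals of 641, 566 and 616 after 5 exposures and 401, 446 and 483 after 10. The groups did not overlap and the log2 difference was -0.46 ± 0.16 (SE, limma, adjusted p = 1), but other probe sets of Hadha gave -0.10 and -0.07. Plin2, a coat protein of lipid droplets, was at 24.5, 26.0 and 26.4 after 5 exposures and at 52.3, 41.8 and 26.0 after 10. Replicates 1 and 2 of the longer course were high and replicate 3 lay among the 5-exposure arrays (log2 difference 0.59 ± 0.21, limma, adjusted p = 1), and a dimmer second probe set was at 0.03. Acacb, which makes the malonyl-CoA that restrains fatty acid uptake into mitochondria, was under the floor on all 3 arrays after 10 exposures and on 1 of 3 after 5 (-0.62 ± 0.22).

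Among enzymes of mitochondrial substrate use, Hibadh and Mdh2 were higher after the longer course and did not pass. Hibadh, which acts in valine breakdown, was at 207, 276 and 284 after 5 exposures and at 329, 371 and 355 after 10. Every 10-exposure array was above every 5-exposure array, with a log2 difference of 0.47 ± 0.15 (SE, limma, p = 0.00401, adjusted p = 1). Mdh2, the malate dehydrogenase of the citric acid cycle, had signals of 1145, 1290 and 1326 after 5 exposures and 1630, 1390 and 1532 after 10. These groups did not overlap either (0.28 ± 0.10, limma, adjusted p = 1), and a second Mdh2 probe set gave 0.13 ± 0.10 with overlap. The wider lists did not share a direction: of 27 measured genes of fatty acid oxidation and PPAR targets 12 were higher and 15 lower (median log2 difference -0.017), and of 38 oxidative phosphorylation genes 20 were higher and 18 lower (0.0097), with 0 called in either. Over the 4206 genes with 1 probe set each, 48.7% were higher and 50.1% lower, with a median of -7.1e-05.

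Lpar2 and Igf2r did not overlap between the groups either. Lpar2, a receptor for lysophosphatidic acid, was at 27.6, 29.1 and 36.2 after 5 exposures and at 7.3, 14.4 and 14.6 after 10. The 5-exposure arrays lay above every control (6.4 to 23.4), while the 10-exposure arrays lay under the floor and within the control range. The log2 difference, against that floor, was -0.90 ± 0.20 (SE, limma, p = 0.000199, adjusted p = 0.506). Igf2r, which carries lysosomal enzymes and clears insulin-like growth factor II, was at 58.2, 49.9 and 30.6 after 5 exposures and at 109, 140 and 69.7 after 10. The groups did not overlap and the log2 difference was 1.19 ± 0.43 (95% interval 0.31 to 2.07, limma, adjusted p = 1). Its signal on the halothane arrays was 93.4 ± 30.1 (SD, n = 3) after 5 exposures and 96.5 ± 11.5 (SD, n = 3) after 10, against 43.9 ± 17.5 (SD, n = 12) in control.

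Erbb2, a receptor tyrosine kinase that pairs with neuregulin receptors, was at 16.6, 19.7 and 18.7 after 5 exposures and at 34.3, 33.5 and 33.0 after 10. The difference was 0.88 ± 0.29 on the log2 scale (limma, adjusted p = 1) and the groups did not overlap, yet all 6 values lay within the control range of 3.6 to 46.3. Fgf14, a growth factor relative that stays in the cell and binds sodium channels, gave 0.78 ± 0.27, and Mfng, a fringe enzyme that modifies Notch receptors, gave 0.86 ± 0.31. Mfng was above every control array on all 3 arrays of the longer course. Gipr, the receptor of the gut hormone GIP, was at 67.1, 107 and 12.6 after 10 exposures and at 134, 96.2 and 111 after 5, so that its log2 difference of -1.20 ± 0.40 came with overlapping groups and 1 array under the floor, and was -0.41 without that array (isoflurane 10 replicate 3).

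In the whole list of neurotrophins, growth factors and their receptors 16 of 54 measured genes were higher and 38 lower, with a median of -0.15 and 0 called. Besides Erbb2, Fgf14 and Igf2r, the lowest p-values belonged to Igf1r, the receptor of insulin-like growth factor I (-0.42 ± 0.16), and Pdgfrb, the receptor that marks pericytes (-0.80 ± 0.36). Igf1r was at 168, 142 and 155 after 5 exposures and at 133 or less on every array after 10, without overlap. Mean log2 signals of the list were 6.11, 6.19 and 6.03 after 5 exposures and 5.91, 6.14 and 5.87 after 10, so the groups overlapped through replicate 2 of the longer course.

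Neuropeptide and transmitter genes included the gene with the lowest p among those higher. Gal, which encodes the neuropeptide galanin, was at 8.3, 6.9 and 5.7 after 5 exposures, all under the floor, and at 6.9, 39.5 and 47.0 after 10. Replicates 2 and 3 of the longer course lay above every control array (5.3 to 17.0), and replicate 1 lay within the range of the shorter course. The log2 difference against the floor was 0.92 ± 0.22 (SE, 95% interval 0.48 to 1.37, limma, p = 0.000271, adjusted p = 0.506). Without replicate 1 its log2 difference was 1.38 (adjusted p = 1.95e-07), in a fit where all 3 5-exposure arrays sit at the floor. Gal is also a pituitary and hypothalamus marker. Of 11 measured pituitary markers 7 were higher, and the list mean on the log2 scale was 5.48, 6.60 and 5.77 after 10 exposures against 5.66, 5.83 and 5.78 after 5. Pomc was at 24.6, 194 and 52.4 and Gh1 at 34.1, 179 and 22.2 on these 10-exposure arrays. So replicate 2 was high for Gal, Pomc and Gh1 and replicate 3 for Gal without Gh1. Of 15 measured hypothalamus markers 6 were higher and 9 lower, and the list mean was 5.89, 7.02 and 6.76 after 10 exposures against 6.43, 6.66 and 6.67 after 5. Avp, the vasopressin gene of that list, was at 102, 512 and 502 after 10 exposures and at 133, 388 and 327 after 5. Replicate 1 of the longer course was thus low, and replicates 2 and 3 high, for Gal, for Avp and for the hypothalamus list mean. Gal and Avp are members of that list, so its mean is not separate from them. In the shorter course replicate 1 was also the lowest for Avp and for the list mean, but not for Gal. The part of pituitary or hypothalamic tissue in the Gal signal was not tested.

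The promoters of Gal and of Junb, an immediate early gene described below, are printed because both genes are listed in the RefSeq promoter table and hold the same pair of motifs. They are the 250 bases before the annotated start in build GRCr8, at chr1:210084573-210084822 (minus strand) for Gal and chr19:40080876-40081125 (plus strand) for Junb. Capitals mark TGACG, the core of the cAMP response element, and TATAAA, the usual letters of a TATA box.
Gal: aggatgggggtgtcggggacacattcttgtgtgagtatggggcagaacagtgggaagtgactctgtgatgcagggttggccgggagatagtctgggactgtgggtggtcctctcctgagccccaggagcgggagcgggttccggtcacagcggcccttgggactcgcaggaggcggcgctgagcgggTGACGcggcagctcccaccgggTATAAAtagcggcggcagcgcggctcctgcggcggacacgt
Junb: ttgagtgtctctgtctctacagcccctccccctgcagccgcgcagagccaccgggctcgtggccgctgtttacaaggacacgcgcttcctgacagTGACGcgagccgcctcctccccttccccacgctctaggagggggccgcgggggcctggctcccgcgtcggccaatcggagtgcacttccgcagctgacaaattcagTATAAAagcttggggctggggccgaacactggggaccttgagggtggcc
TGACG begins 63 bases before the start of Gal and 155 before that of Junb, and TATAAA 41 and 49 bases before. Read on both strands, TGACG (or CGTCA) is in 18.2% of the 33469 promoters of this length, TATAAA (or TTTATA) in 12.9% and both in 1.67%. The signals of the 2 genes differed in direction between the courses, and a match is a description of the letters only.

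Pdyn, the precursor of the dynorphin opioid peptides, was at 899, 772 and 817 after 5 exposures and at 586, 637 and 735 after 10. The groups did not overlap, and 2 of the later arrays lay below every control (log2 difference -0.35 ± 0.13, limma, adjusted p = 1). A second, dimmer Pdyn probe set gave -0.13 ± 0.26. Pnmt, the enzyme that turns noradrenaline into adrenaline, had signals of 114, 110 and 144 after 5 exposures and 57.8, 54.6 and 93.0 after 10. Its groups did not overlap (-0.87 ± 0.26, limma, p = 0.00277, adjusted p = 1). Of 59 measured genes of monoamine and acetylcholine transmission 15 were higher and 43 lower, with a median of -0.13 and 0 called. The dopamine transporter gene Slc6a3 was lower without overlap (-0.52 ± 0.25) and Maob, which breaks down monoamines, was higher without overlap (0.31 ± 0.15). Of 35 neuropeptide and granin genes 16 were higher and 19 lower, Pcsk2, a convertase that cuts peptide precursors, being at -0.34 ± 0.12.

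**Figure D2:**
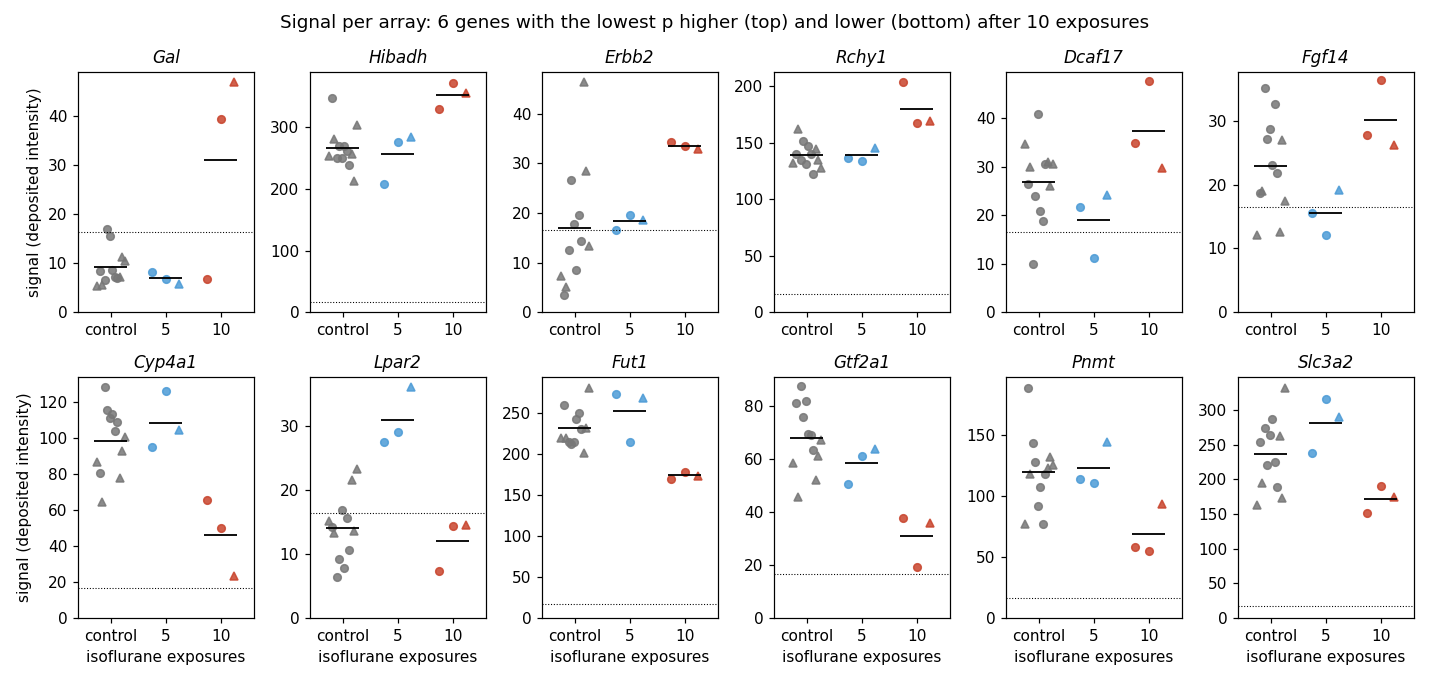
Each panel gives 1 gene, with the deposited signal on the y axis (linear, from 0) for the 12 controls and the 3 arrays after 5 and after 10 isoflurane exposures. Bars are group means, triangles are arrays with high spike-in signal, circles arrays with low spike-in signal and the dotted line is the floor of 16.5. The 10-exposure arrays of Gal sit at 6.9, 39.5 and 47.0, and those of Cyp4a1 at 65.5, 49.9 and 23.3.

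Immediate early and activity genes were mostly lower after the longer course. Of 24 measured genes 4 were higher and 20 lower, with a median log2 difference of -0.15, and 0 were called. The list mean per array on the log2 scale was 6.93, 6.94 and 6.83 after 5 exposures and 6.62, 6.84 and 6.78 after 10, so that only replicate 2 of the longer course reached the range of the shorter one. Junb, a partner of Fos in the AP-1 transcription factor, was at 168, 110 and 123 after 5 exposures and at 83.8, 94.5 and 101 after 10. The groups did not overlap, and 2 of the later arrays lay below every control (log2 difference -0.50 ± 0.20, limma, p = 0.022, adjusted p = 1). Fos was at 358, 336 and 345 after 5 exposures and at 188, 312 and 287 after 10, again without overlap (-0.43 ± 0.18, limma, p = 0.0262, adjusted p = 1), and at -0.21 without isoflurane 10 replicate 1. Crem, a cAMP-responsive regulator, did not overlap (-0.27 ± 0.24), whereas Egr1 (-0.29 ± 0.20) and Ier3 (-0.31 ± 0.21) did. Jun, chosen after its values were seen, had probe sets that disagreed, 1 of them at -1.12 ± 0.41 and the brightest at -0.04. The median was -0.27 without isoflurane 5 replicate 3 and -0.26 on low spike-in arrays.

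Lists of synaptic genes, among them known targets of anaesthetics, held 0 called members. Of 19 measured GABA and glycine receptor genes 7 were higher and 12 lower (median -0.13), from -0.30 to 0.32, and the GABA-B subunit gene Gabbr2 was at -0.21 ± 0.17. Of 23 glutamate receptor genes 7 were higher and 16 lower (median -0.12). Grin2b, an NMDA receptor subunit, was at 218, 210 and 204 after 5 exposures and at 178, 153 and 176 after 10. The values did not overlap, and the 3 later ones lay below every control (log2 difference -0.32 ± 0.14, limma, p = 0.0278, adjusted p = 1). Of 37 potassium channel genes 15 were higher and 21 lower (median -0.048). Kcna4, a voltage-gated channel subunit, was at 9.4, 19.3 and 9.6 after 5 exposures and at 21.8, 74.2 and 26.2 after 10, with controls from 10.8 to 52.3. Replicate 2 of the longer course was the highest, and the log2 difference of 1.00 ± 0.47 was 0.46 without it (isoflurane 10 replicate 2). Among 46 genes of synaptic vesicles and exocytosis 19 were higher and 27 lower (median -0.075), and the calcium sensor gene Syt7 was at -0.99 ± 0.41 without overlap.

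Heat shock proteins and chaperones, which hold or refold proteins under stress, were lower for 20 of 33 measured genes and higher for 13, with a median of -0.079 and 0 called. Hspb1, a small heat shock protein, was at 617, 452 and 564 after 5 exposures and at 386, 434 and 450 after 10. All 3 later arrays lay below the earlier ones and below every control (log2 difference -0.35 ± 0.14, limma, p = 0.0191, adjusted p = 1). Hsf1, the transcription factor of the heat shock response, gave -0.40 ± 0.17, Hspa9, the mitochondrial member of the Hsp70 family, -0.93 ± 0.44, and Dnajb1, an Hsp70 partner, -0.27 ± 0.15, each without overlap. Pdia6, which forms disulphide bonds, was at -0.26 ± 0.13 with overlap. Cytosolic ribosomal protein genes went the other way in count, 29 of 37 higher and 8 lower (median 0.071), with Rps3a at 0.30 ± 0.13 and Rpl39 at 0.26 ± 0.18. Their mean log2 signals of 9.63, 9.35 and 9.82 after 10 exposures overlapped 9.42, 9.43 and 9.70 after 5.

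In the circadian list 4 of 10 measured genes were higher and 6 lower. Bhlhe41, a clock repressor, was at 193, 235 and 255 after 5 exposures and at 286, 267 and 326 after 10. The groups did not overlap (log2 difference 0.37 ± 0.16, limma, p = 0.0315, adjusted p = 1). Hlf, a clock-controlled activator, gave -0.62 ± 0.33 and Nr1d2, a nuclear receptor of the clock, 0.32 ± 0.18, both without overlap. Under halothane the same 3 genes were at 0.37, -0.63 and 0.38. The next members by p did not match between the agents. Nr1d1, a relative of Nr1d2, was at -0.34 under isoflurane and 0.02 under halothane, and Csnk1d at -0.24 and 0.12. The sources used here do not state the time of day of collection, and its part in these values was not tested.

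Lists of detoxifying and stress-related genes held 0 called members. Of 40 measured cytochrome P450 genes 15 were higher and 23 lower (median -0.060), with Cyp2b2 at -1.28 ± 0.55 and Cyp2c11 at 0.92 ± 0.41. Cyp2b2 was uneven within the shorter course, at 75.1, 18.0 and 85.7, and overlapped the later arrays. Of 33 conjugation enzymes 11 were higher and 20 lower (-0.024), and the sulfotransferase gene Sult1c3 was at -0.77 ± 0.28 without overlap. Antioxidant genes divided into 13 higher and 14 lower (-0.0038), with Cp, the copper protein ceruloplasmin, at 0.78 ± 0.30. Of 21 genes of apoptosis 5 were higher and 16 lower (-0.14), and Bnip3l, a mitophagy receptor, was at 0.30 ± 0.12. Inflammation genes were higher for 16 and lower for 20 of 37 (-0.021), and the NF-kappa-B inhibitor gene Nfkbia, also a member of the glucocorticoid list (3 higher and 7 lower of 10, median -0.061), was at -0.65 ± 0.40. Ubiquitin and proteasome genes were lower for 20 of 30 (-0.054), with the activator subunit gene Psme2 at -0.98 ± 0.38 and the core subunit gene Psma4 at 0.35 ± 0.15. With single arrays left out, Psme2 was at -0.28 (without isoflurane 10 replicate 2), Nfkbia at -0.28 (without isoflurane 10 replicate 1) and Cp at 0.41 (without isoflurane 5 replicate 1). The lipid synthesis list had 9 of 22 higher and 13 lower (-0.035), its regulator Srebf1 being at -0.59 ± 0.26, and Prkcd, a protein kinase C, was at -0.33 ± 0.15 among 33 kinase and phosphatase genes with a median of 0.033.

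The other lists had medians near 0. They were -0.0048 for 27 sodium, calcium and pacemaker channels, -0.0049 for 42 G protein and cyclic nucleotide genes, 0.0048 for 17 genes of amino acid transmitter synthesis and uptake, -0.018 for 28 genes of glucose transport and glycolysis and -0.049 for 20 cytoskeletal genes. All 42 lists had 0 called members.

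**Figure D3:**
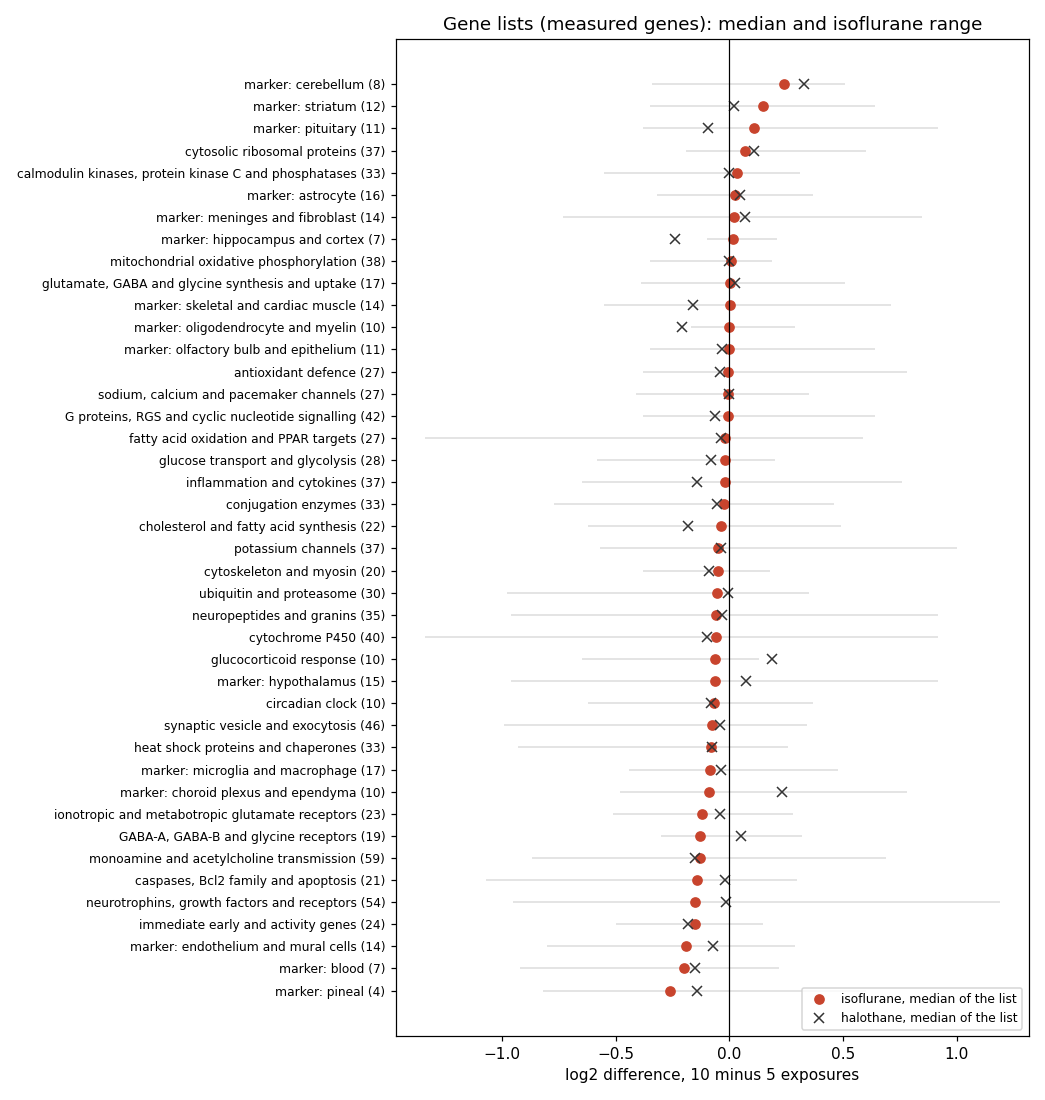
For each gene list, with its number of measured genes in brackets, the red point is the median log2 difference of 10 minus 5 isoflurane exposures, the grey line its range over members and the black cross the median for halothane. Medians for isoflurane run from -0.26 for the 4 pineal markers to 0.24 for the 8 cerebellum markers.

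Several remaining genes among the 24 have roles in gene regulation and at the cell surface. Fut1, which adds fucose to glycans, was at 274, 215 and 268 after 5 exposures and at 170, 178 and 173 after 10. All 3 later arrays were below the earlier ones and below every control (202 to 280), with a log2 difference of -0.53 ± 0.12 (SE, limma, p = 0.000274, adjusted p = 0.506). The halothane arrays were below every control as well, at 198, 175 and 182 after 5 exposures and at 169, 182 and 181 after 10. Other Fut1 probe sets gave 0.07 and -0.15. Gtf2a1, a subunit of the general transcription factor TFIIA, was at 50.7, 61.0 and 63.9 after 5 exposures and at 37.7, 19.1 and 35.8 after 10. Here too every later array lay below every control (-0.98 ± 0.28, limma, p = 0.00166, adjusted p = 1). Rchy1, a ubiquitin ligase that acts on p53, was at 137, 134 and 146 after 5 exposures and at 203, 168 and 170 after 10. The later arrays all lay above the highest control, 162 (0.37 ± 0.13, limma, adjusted p = 1).

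Supt5h, a factor of transcript elongation, was at 49.7, 63.9 and 73.4 after 5 exposures and at 7.8, 18.6 and 6.6 after 10. The groups were far apart (log2 difference -1.84 ± 0.65, limma, adjusted p = 1), but this probe set ranged from 0.8 to 78.7 over the controls, and other Supt5h probe sets gave -0.31 and -0.15. Slc3a2, the heavy chain of amino acid transporters, gave -0.70 ± 0.22 without overlap, against -0.01 for its second probe set. Tjp1, a scaffold of tight junctions, was higher without overlap (0.41 ± 0.15). Dcaf17, a factor of a cullin ubiquitin ligase (0.84 ± 0.28), and Tnp1, a transition protein of sperm chromatin (0.99 ± 0.35), did not overlap either, with signals of 28.7 or less after 5 exposures. Tmem218, a membrane protein, was at 128, 114 and 150 after 5 exposures and at 46.3, 108 and 107 after 10, without overlap. Replicate 1 of the longer course was far the lowest, and the log2 difference of -0.68 ± 0.23 was -0.28 without it (isoflurane 10 replicate 1).

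The blood marker list was the only 1 of the 42 whose mean per array did not overlap between the groups, lower after 10 exposures. The nearest arrays were at 6.18 and 6.17. A full separation of 3 against 3 arrays reaches only p = 0.10 in an exact permutation test, so 1 list among 42 is a description. The list mean on the log2 scale was 6.37, 6.29 and 6.18 after 5 exposures and 5.71, 6.06 and 6.17 after 10, and the median over 7 measured genes was -0.20, with 2 higher, 5 lower and 0 called. The haemoglobin gene Hbb-b1 was at 225, 185 and 166 after 5 exposures and at 77.2, 92.9 and 142 after 10. The groups did not overlap (-0.92 ± 0.44, limma, p = 0.0478, adjusted p = 1), and Hbb behaved alike (-0.75 ± 0.41), while Alas2, the first enzyme of haem synthesis in red cells, overlapped (-0.20 ± 0.23). The probe sets of Hbb and Hbb-b1 may share transcripts, so they are not separate evidence, and both count in the mean of 7 genes. Another, dimmer haemoglobin gene, Hba-a3, was higher with overlap (0.22 ± 0.33). In whole brain, fewer cells of a type and less RNA per cell cannot be told apart, and how much blood remained in each brain was not tested.

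Markers of brain regions and other tissues were uneven between single arrays. Of 8 cerebellum markers 7 were higher (median 0.24), with list means of 9.07, 8.41 and 9.53 after 10 exposures against 8.65, 8.68 and 9.08 after 5. Replicate 3 was the highest and replicate 2 the lowest of the 6, as in Pvalb, a marker of Purkinje and basket cells, which was at 737, 438 and 1080 after 10 exposures and 499, 502 and 652 after 5 (0.37 ± 0.31). Neurod1, a granule cell factor, was at 0.25 ± 0.40 and turned to -0.18 without isoflurane 10 replicate 3, while Itpr1, a calcium channel rich in Purkinje cells, was at 0.35 ± 0.23 and Cacna1a, another calcium channel of Purkinje cells, at -0.34 ± 0.13. Medians were -0.19 for 14 endothelial and mural markers, 0.15 for 12 striatal, -0.062 for 15 hypothalamic, 0.018 for 7 hippocampal and cortical and 0.0034 for 14 muscle markers. They were 0.024 for 16 astrocyte, 0.00082 for 10 oligodendrocyte and -0.085 for 17 microglial markers, with the class II gene RT1-Bb at -0.44 ± 0.20. The 14 meningeal markers had a median of 0.022, with Fn1, which encodes fibronectin, at 0.47 ± 0.18, the 10 choroid plexus markers -0.089, and the 11 olfactory markers 0 with 5 in each direction, Omp being at -0.32 ± 0.12. The part of unequal dissection in the gene values above was not tested.

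Against the control level, 20 of the 24 genes with the lowest p-values lay farther from the control mean after 10 exposures than after 5, as did 4490 of all 7389 probe sets (60.8%) and 168 of the 222 at an unadjusted p under 0.05. These genes were picked by the same 10-exposure arrays, so their count is a description. The exceptions were Fgf14, Lpar2, Supt5h and Acacb. For Lpar2 the log2 difference from control was 0.82 after 5 exposures and -0.08 after 10, and for Supt5h it was 1.10 and -0.75. Rchy1 and Mfng lay above every control on all 3 arrays of the longer course, and Fut1 and Gtf2a1 below every control. For Fut1 this was also so on all halothane arrays of both courses.

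**Figure D4:**
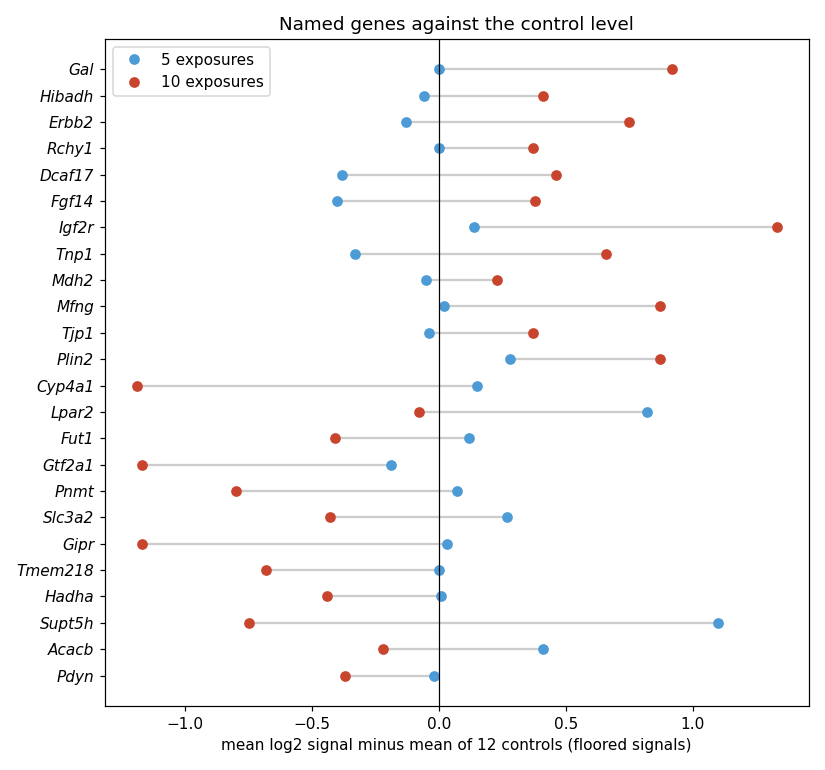
The x axis is the mean log2 signal of a group minus the mean of the 12 controls, on floored signals, and each line of the y axis is 1 of the 24 genes with the lowest p-values. Blue points are 5 exposures and red points 10 exposures, and for 20 of the 24 genes the red point is farther from 0.

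The halothane groups show whether the step from 5 to 10 exposures differed between the agents, and these 4 groups share no array. The concentrations differed (0.8% halothane, 1.0% isoflurane), while the length, daily number and total number of exposures and the recovery between them were the same. The interaction of agent and exposure number was called by limma for 0 of 7389 probe sets (0%), 148 of which (2.00%) had an unadjusted p under 0.05, with a lowest adjusted p of 0.57. In the fit on the 12 exposed arrays with the replicate number as a block limma called 0 and 285 probe sets had an unadjusted p under 0.05, against 177 on these arrays with no block. Without isoflurane 10 replicate 1 limma called 1, Gal, and without isoflurane 10 replicate 3 the unadjusted count was 245. The median 95% interval of such a difference reached 0.73 to either side. For halothane alone limma called 1 probe set (0.0135%), that of the glucuronosyltransferase gene Ugt2b35, and 278 (3.76%) had an unadjusted p under 0.05. Over probe sets the log2 differences of the agents correlated at 0.131, a description over genes measured on 2 separate sets of 6 arrays.

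Of the 24 genes, 14 had a halothane difference of the same sign. The share over all probe sets was not counted, so this is a description and not a trait of these genes. Supt5h had the largest difference between the agents among the 10 genes with the lowest interaction p, at -1.84 under isoflurane and 1.40 under halothane (difference -3.24 ± 0.92, limma, p = 0.00182, adjusted p = 1). Its halothane signals were 4.6, 3.5 and 12.1 after 5 exposures and 60.6, 82.2 and 13.7 after 10, so the order rests on 13.7 against 12.1 for the nearest arrays, both under the floor. Its other, brighter probe sets gave differences between the agents of -0.22 and 0.04. Vegfa, the vascular growth factor, was at -0.95 under isoflurane and 1.28 under halothane (-2.23 ± 0.72), though its other probe sets gave differences of -0.12, -0.44 and -0.15. Wsb2, a ubiquitin ligase adaptor, was at 134, 191 and 144 after 5 isoflurane exposures and 194, 212 and 202 after 10, and at 195, 195 and 222 after 5 halothane exposures and 173, 168 and 149 after 10. So the courses were ordered oppositely without overlap in both agents (difference 0.71 ± 0.24, limma, p = 0.00623, adjusted p = 1).

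Adrb1, a beta adrenergic receptor, gave a difference of 1.63 ± 0.54, Dcaf17 1.23 ± 0.40 and Gal 1.02 ± 0.31. Lpar2 gave -0.98 ± 0.29, Cyp4a1 -1.21 ± 0.40 and Phaf1, a regulator of autophagosome formation, -0.72 ± 0.23. A second Cyp4a1 probe set gave 0.7 ± 0.75, in the other direction. All 3 Lpar2 signals after 10 isoflurane exposures lay under the floor. Phaf1 was at 0.03 under isoflurane and 0.74 under halothane. Ugt2b35 was at 0.20 and -1.28 (difference 1.48 ± 0.31, limma, p = 7.71e-05, adjusted p = 0.57), but its signals lay under the floor on 5 of 6 isoflurane arrays and on all 3 arrays after 10 halothane exposures, so these values and the SE rest largely on floored signals. Immediate early genes had medians of -0.15 under isoflurane and -0.18 under halothane, ribosomal protein genes 0.071 and 0.11, and cerebellum markers 0.24 and 0.33. Growth factor genes were at -0.15 and -0.014, apoptosis genes at -0.14 and -0.017 and GABA and glycine receptor genes at -0.13 and 0.052, and these differences between lists were not tested. Junb was at -0.50 and -0.61 and Hbb-b1 at -0.92 and -0.91, whereas Fos was at -0.43 and -0.04 (difference -0.39 ± 0.26, limma, adjusted p = 1).

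**Figure D5:**
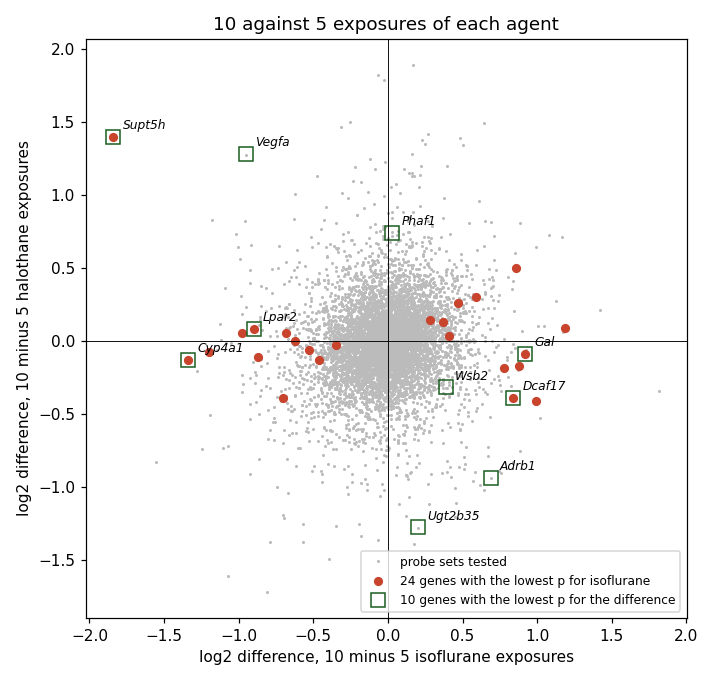
Each grey point is a probe set, with the log2 difference of 10 minus 5 isoflurane exposures on the x axis and of 10 minus 5 halothane exposures on the y axis. Red points are the 24 genes with the lowest p for isoflurane and open green squares the 10 with the lowest p for the difference between agents, with Supt5h at -1.84 and 1.40.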

How the data were processed

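Whole-brain total RNA was measured on 24 single-colour arrays, 1 per sample, grouped by their titles. The deposited table gives a linear-scale intensity for each probe set on each array. The sources used here name no software for summarising or scaling and hold no detection calls, but arrays had 2% trimmed means of 150.1 to 150.2 and medians of 53.5 to 64.9, so the deposited scaling was kept. For arrays, the number of arrays limits the precision.

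Of 8799 probe sets 59 array controls were left out. A floor of 16.5, the 25th percentile of the table, was applied before taking log2, which understates differences of dim genes and can make the spread of a floored group 0. The 7389 probe sets that exceeded the floor on 3 or more arrays were tested. The platform annotation gave 1 gene symbol for 6018 of them, several for 267 (not named) and none for 1104. Symbols of 6994 of 7018 single-gene probe sets were found in a current rat gene table. Promoters came from RefSeq (GRCr8), leaving out bases after the start; those of Cyp4a1, Fos and Lpar2 were not used here.

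The 10 against 5 contrast and the interaction were tested two-sided in R 4.3.3 by limma 3.58.1 (lmFit, then eBayes with its intensity trend) over the 5 groups of 24 arrays, which share the estimate of the spread, with Benjamini-Hochberg adjustment over 7389 probe sets and a threshold of 0.05. SE and 95% intervals are those of this fit. The procedure was run on simulated data with independent arrays, changes in bright probe sets only and no effective floor. That simulation does not cover changes in dim or floored genes, or pairing by replicate number. With 3 arrays against 3 an exact permutation test cannot go below p = 0.10.

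The named genes are the 12 with the lowest p in each direction, up to 5 with the lowest p of a list, the most abundant markers, and the 5 with the lowest p in each direction of the interaction, with 1 probe set per gene. Lists use the probe set with the highest mean signal and were not tested. The comparison, the 42 lists and the rules were chosen with earlier results of these data known.

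The titles give a replicate number, and the labels do not say what it marks. Same-numbered isoflurane arrays deviated together from their group means (correlations 0.149, 0.296 and 0.46), so the numbers were taken as pairing the samples. The reported SE, intervals and p-values do not use this pairing. The block was run as an alternative, on the 12 exposed arrays alone. A fit on these arrays with no block was added after seeing the data. The other alternatives were quantile normalization, median centring, other floors and filters, no trend, array weights, fewer arrays, the spike-in level (from 9 probe sets, high on 9 arrays and low on 15) as a block or low arrays alone, gene means over probe sets for lists, and each array left out in turn.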

Additional observations from a re-analysis of the deposited data

Results flagged for a closer look

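For the elongation factor gene Supt5h all 3 arrays after 10 isoflurane exposures lay below all 3 after 5, while all 3 arrays after 10 halothane exposures lay above all 3 after 5. The difference between the agents was -3.24 on the log2 scale and did not pass in limma (adjusted p = 1). For its nearest halothane arrays the order was 13.7 against 12.1, both under the floor, and other, brighter Supt5h probe sets gave -0.22 and 0.04. For Wsb2, a ubiquitin ligase adaptor gene, the 10-exposure arrays lay above the 5-exposure arrays under isoflurane and below them under halothane, a difference of 0.71 that did not pass either (limma, adjusted p = 1).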

How the results depend on the processing

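The count of probe sets called was 0 in the reported fit and under each of 15 other settings except low spike-in arrays alone (1), and 0 to 2 with 1 array left out. The interaction was called for 0 under each of these settings and for 0 to 1 with 1 array left out. At an unadjusted p under 0.05 the count of 222 became 363 with no filter, 128 with a strict filter, 489 with array weights, 383 on low spike-in arrays and 406 with the replicate block on the 12 exposed arrays, and 145 to 387 with 1 array left out. The interaction count of 148 became 69 with a strict filter, 277 with array weights, 249 on low spike-in arrays and 285 with that block, and 127 to 245 with 1 array left out. The 12 exposed arrays with no block, a setting chosen after seeing the data, gave 246 and 177. The replicate block changed no other call. Of the 24 genes with the lowest p-values 0 turned direction in 340 values from other settings and 576 with an array left out. Leaving out a control or halothane array, or using no trend, cannot change an isoflurane difference. For the 20 genes whose groups did not overlap, leaving out 1 isoflurane array cannot turn the direction either. The 24 genes were picked on the same arrays, so these counts are a description. Mbp turned to 0.04 with quantile normalization, 0.03 with median centring, 0.03 without isoflurane 10 replicate 3 and 0.04 without isoflurane 5 replicate 1. With 1 array left out Pomc ranged from -0.18 and Gh1 from -0.38 (both without isoflurane 10 replicate 2) to 1.31 and 1.12, Avp from -0.26 (without isoflurane 5 replicate 1; -0.18 and -0.17 without isoflurane 10 replicates 2 and 3) to 0.98, Neurod1 from -0.18 (without isoflurane 10 replicate 3) to 0.62, and Phaf1 from -0.06 (without isoflurane 10 replicate 1; -0.05 without isoflurane 5 replicate 2) to 0.12. List medians likewise cannot move when a control or halothane array is left out. Of 1680 list medians over settings and left-out arrays, those rows included, 37 moved by 1 SD or more of the list mean. The cause of these changes was not tested. With 3 arrays a group, differences under about 0.52 on the log2 scale are mostly not detectable even before adjustment. After adjustment larger ones also went uncalled, and dim genes near the floor are the least precise.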
